A study of Homo sapiens with 6 samples.

Results

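The nuclear genes for the subunits of respiratory complexes II, III and IV and of ATP synthase (complex V) were followed in cultured cells transfected with a microRNA mimic. The cells were THP-1, a human line derived from a monocytic leukaemia. The 36 genes were chosen by the subunit they encode, though with earlier results of these data known. Of them 4 encode complex II, 9 complex III, 10 complex IV and 13 ATP synthase. All 36 were found by NCBI gene ID among the 26347 genes of the count table, and all 36 were among the 14731 genes with enough counts to be tested. The miR-125a-5p group was 3 libraries of cells given the miR-125a-5p mimic, and the control group was 3 libraries of cells given a negative control mimic. Both groups were the same line in the same medium, and RNA was taken 24 h after transfection. Macrophages appear in the title of the study, whereas the labels give monocytic cells and mention no step of differentiation.

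The respiratory chain sits in the inner mitochondrial membrane. Complex II oxidises succinate and is also an enzyme of the TCA cycle, complex III passes electrons from ubiquinol to cytochrome c, and complex IV passes them from cytochrome c to oxygen. Complexes III and IV pump protons, and ATP synthase lets protons flow back through its membrane rotor to drive ATP formation in its soluble head. Complex II is built wholly from nuclear genes, whereas the other complexes also hold subunits encoded in mitochondrial DNA. The mitochondrially encoded subunits had 0 rows in the table and were not analysed here.

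The mimic's mature sequence is shown because its seed (bases 2 to 8, in capitals) defines the sites searched in the members. The sequence is RefSeq's, from chromosome 19, 51693268 to 51693291, plus strand (GRCh38.p14).
hsa-miR-125a-5p: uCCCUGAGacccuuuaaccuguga

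A match to the seed in the longest 3′ untranslated region annotated in GENCODE 29 was found in 8 of 36 members (22.2%), against 40.5% of the 12843 tested genes that could be searched. The members' regions ran from 102 bases (ATP5MC1) to 12907 bases (SDHC), and the shares were not adjusted for region length. A match of 7 or 8 bases was found in 5 of 36 members (13.9%), against 26.8% of the searched genes. The classes were the 8mer CTCAGGGA, the 7mer-m8 CTCAGGG, the 7mer-A1 TCAGGGA and the 6mer TCAGGG, and each gene was counted once under its best class. These 5 members are shown with their flanks, since they held the longer classes. Whether the annotated regions are part of the transcripts made in THP-1 cells was not tested. The lines give the messenger RNA strand in DNA letters with the match in capitals.
ATP5F1A: cagttaaaattCTCAGGGAaatgaaaaaat
ATP5MC2: aacgtggttggCTCAGGGtttgacagaga
SDHC: cagtcttgctcCTCAGGGcaactgctgtt
UQCRQ: attagtatgtgTCAGGGAcgcttttattt
UQCRFS1: cctgctttgcgTCAGGGAcgcagattctg

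On GRCh38, which is not the build used for the counts, the ATP5F1A match is the only 8mer and lies on chromosome 18, 46083526 to 46083533, minus strand, in an untranslated region of 4034 bases. The ATP5MC2 match lies on chromosome 12, 53665210 to 53665216, minus strand, in a region of 148 bases. The SDHC match lies on chromosome 1, 161369751 to 161369757, plus strand, in a region of 12907 bases. The UQCRQ match lies on chromosome 5, 132867971 to 132867977, plus strand, and the UQCRFS1 match on chromosome 19, 29207200 to 29207206, minus strand. UQCR10, ATP5F1E and ATP5MC3 held the 6mer only. The members with a match did not share a direction: the log2 fold change (miR-125a-5p over control) was 0.11 for ATP5F1A, -0.21 for ATP5MC2, -0.07 for SDHC, -0.17 for UQCRQ and 0.19 for UQCRFS1, and none passed the test described next.

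No member passed the test for a difference between the groups. At an adjusted p under 0.05 (edgeR, quasi-likelihood F test, p-values adjusted by Benjamini and Hochberg's method over 14731 genes) 0 of 36 members were called, against 4 of all genes, or 0.0272%, all of them lower. DESeq2 and limma voom also called 0 members. The smallest adjusted p of a member was 0.739, for ATP5F1B. At an unadjusted p under 0.05, 2 of 36 members were higher and 0 lower, against 2.69% of all tested genes higher and 3.22% lower. The log2 fold changes of the members ran from -0.21 to 0.25, with 23 positive and 13 negative, and 50.2% of all tested genes were positive. Their median was 0.04, beside 0.0011 for all tested genes. Levels are given as CPM, a gene's count relative to its library's total after the totals were put on a common scale (TMM normalisation). They are bulk values, in which fewer cells of a type and less RNA per cell cannot be told apart. The 95% confidence interval of the log2 fold change lay within -0.5 and 0.5 for 34 of 36 members. The exceptions were ATP5MC1, whose interval reached 0.55, and ATP5MC2, whose interval reached -0.51. A missed threshold does not show that the groups were alike, but for these 34 genes a change beyond 0.5 on the log2 scale lay outside the interval.

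**Figure D1:**
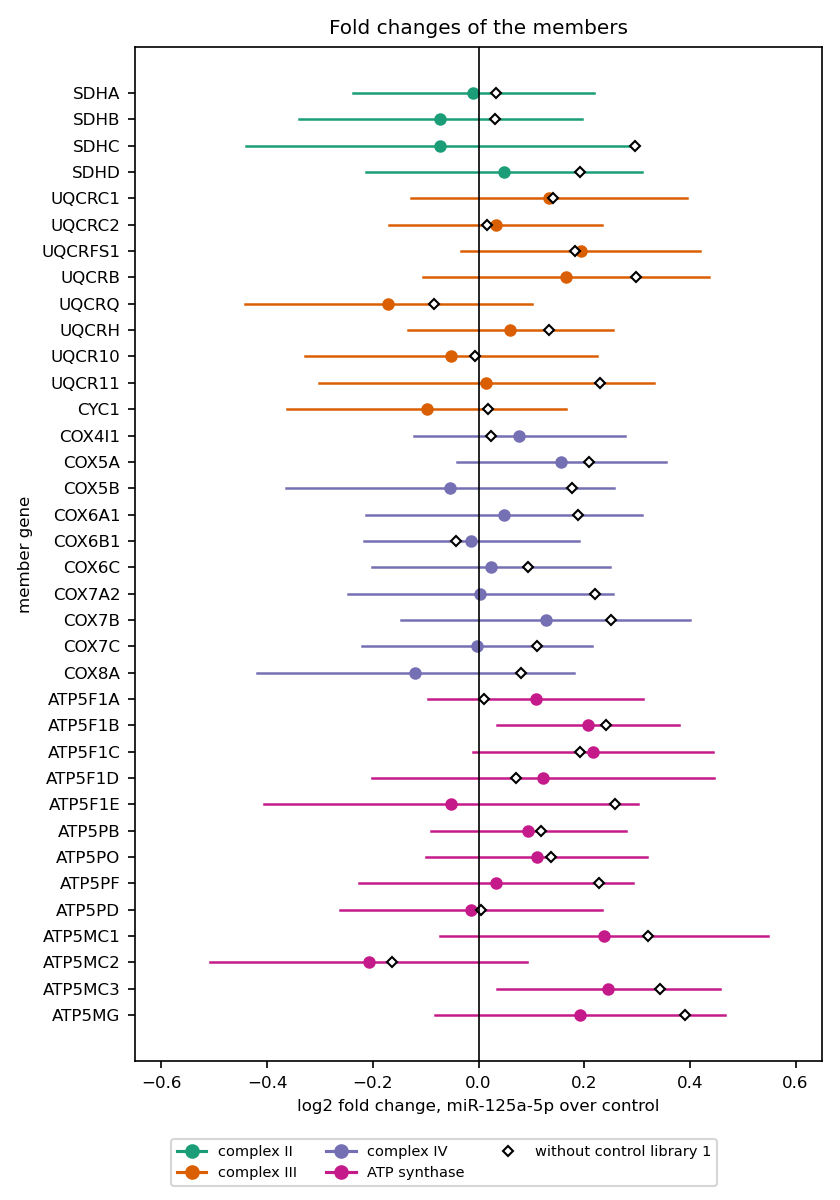
Log2 fold change of each member, miR-125a-5p over control (x axis), with members down the page by complex. Filled points are the fit to all 6 libraries with lines for the 95% confidence interval, and open diamonds are the fit without control library 1. The points lie between -0.21 and 0.25, and the intervals of ATP5F1B and ATP5MC3 alone lie wholly above 0.

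The libraries held 8537658, 9356861 and 8256149 counts in the miR-125a-5p group and 10257791, 8423228 and 9040297 in the control group, and each member had 180 to 6501 counts per library. Transfection was in triplicate, but independent cultures are not stated, so the p-values reflect how far these libraries differed from each other, and that variation may be technical. Control library 1 stood apart, with a score of 38.2 on principal component 1, where the others scored between -16.3 and -1.14, and member results are therefore also given without it. The 10 myeloid marker genes all had counts and summed to 2892 to 3057 CPM in miR-125a-5p libraries and 3018 to 3106 CPM in control libraries. T cell, B cell, epithelial, fibroblast and erythroid markers each summed to at most 5.02 CPM in every library. The defining erythroid genes were at 0 counts throughout.

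Together the 36 members held 3713, 3786 and 3729 CPM in miR-125a-5p libraries 1, 2 and 3. In control libraries 1, 2 and 3 they held 3793, 3312 and 3423 CPM. The miR-125a-5p libraries lay close together, with a mean of 3743 ± 38.4 CPM (SD, n = 3), between control library 1 above them and control libraries 2 and 3 below, whose group mean was 3509 ± 252 CPM (SD, n = 3). The spread of log2 CPM was smaller among miR-125a-5p than among control libraries for 27 of 36 members, against 51.1% of all tested genes.

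**Figure D2:**
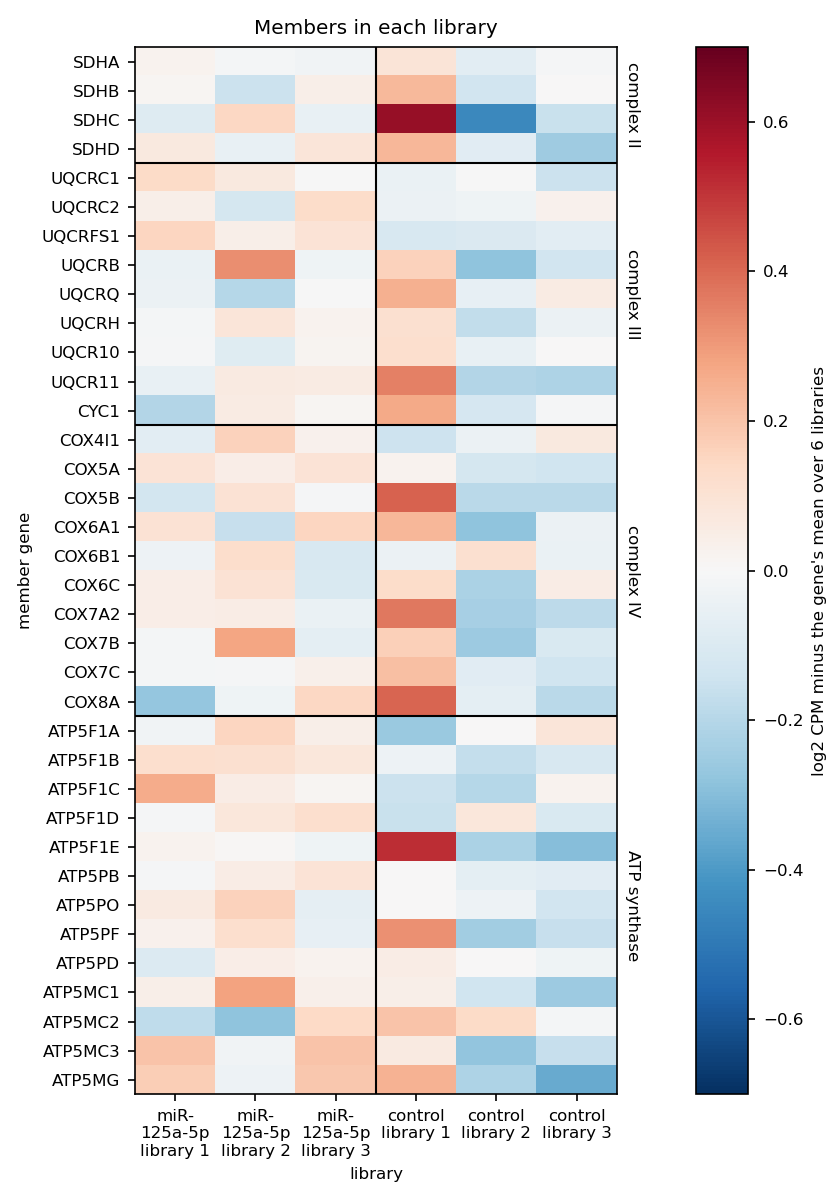
Each row is a member, each column a library (miR-125a-5p left, control right), and the colour is log2 CPM minus that gene's mean over the 6 libraries. Control library 1 is the highest of all 6 libraries for 20 of 36 members, and SDHC, ATP5F1E, COX5B and COX8A are the darkest cells of that column.

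Control library 1 differed from the other controls in many members. It was the highest of the 3 control libraries for 28 of 36 members and the lowest for 5, whereas over all tested genes it was the highest for 37.3% and the lowest for 36.8%. It was the highest of all 6 libraries for 20 members, against 21.3% of all tested genes. Set against the mean of control libraries 2 and 3, the members' median difference in control library 1 was 0.23 on the log2 scale, beside 0.0049 for all tested genes. SDHC was furthest out, at 1.87 times the mean of the other controls, and ATP5F1E, the epsilon subunit of ATP synthase, followed at 1.72 times. COX5B, COX7A2 and UQCR11 stood at 1.52, 1.49 and 1.48 times. In the other direction ATP5F1A, the alpha subunit of the ATP synthase head, stood at 0.810 times and COX4I1 at 0.896 times.

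The members that were high in control library 1 were mainly those with short coding sequences. Among the 25 members with a coding length under 600 bases, a limit chosen after the values were seen, control library 1 was the highest control for 22, and their median log2 difference from the other controls was 0.32. Among the 11 longer members it was the highest control for 6, with a median difference of 0.08. In the same library, 922 of the 1562 tested genes with coding lengths under 600 bases were highest of the controls, with a median difference of 0.15, so short genes of other kinds were often high there too. Across the 36 members the correlation of this difference with log2 coding length was -0.52 (Pearson r) and -0.55 (Spearman rho). Across 12929 tested genes with a coding length these were -0.19 and -0.25. These correlations are across genes measured in the same 3 libraries and are given as a description. The part of transcript length in the position of control library 1 was not tested.

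**Figure D3:**
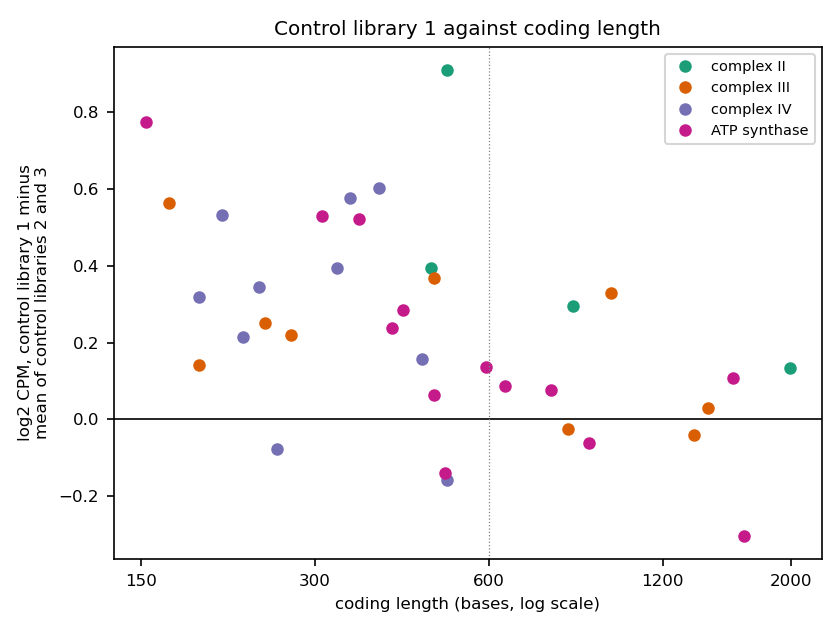
Each point is a member, with coding length in bases on a log scale (x axis) and log2 CPM of control library 1 minus the mean of control libraries 2 and 3 (y axis), coloured by complex. The dotted line marks 600 bases. Most points to the left of it lie above 0, and ATP5F1A, at 1659 bases, is the lowest.

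Without control library 1 the members leaned to higher values in the miR-125a-5p group, though none passed. Control library 1 was the highest control for 28 of 36 members, so leaving it out lowers their control mean and raises their fold changes. In that fit 32 of 36 log2 fold changes were positive, against 50.4% of all 15022 genes tested, and the median was 0.14. By the edgeR test 0 of 36 members were called (0.0266% of all genes), and the smallest adjusted p was 0.391, for ATP5MC3. At an unadjusted p under 0.05, 8 members were higher and 0 lower, against 3.32% higher and 3.05% lower of all genes. These were SDHC, UQCRB, COX5A, COX7A2, ATP5F1B, ATP5PF, ATP5MC3 and ATP5MG. Short genes in general leaned this way too. Of the 1562 genes with coding lengths under 600 bases, 997 were positive, with a median of 0.08. At an unadjusted p under 0.05 (edgeR), 122 of them were higher and 16 lower. Of the members, 21 of the 25 under 600 bases were positive (median 0.19), as were all 11 longer ones (median 0.12). Of 11367 longer tested genes 5645 were positive. The part of coding length was not tested. Without control library 2 the members' median was 0.0048, and leaving out any of the other libraries gave 0.01 to 0.05. It was 0.04 with all libraries and 0.14 without control library 1, so its size rested on which library was left out.

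Complex II showed no called difference, and its spread in the control group was wide. The mean over its 4 members of log2 CPM, set against each gene's mean over all libraries, stood at 0.0038, -0.02 and 0.01 in miR-125a-5p libraries 1, 2 and 3. It was 0.29, -0.18 and -0.10 in control libraries 1, 2 and 3. The median log2 fold change of complex II was -0.04, and 0.11 without control library 1, with the sign turned.

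SDHA, the flavoprotein that binds and oxidises succinate, had 59.0, 57.3 and 56.9 CPM in miR-125a-5p libraries and 61.7, 55.1 and 57.5 CPM in control libraries. The 2 ranges overlapped, and edgeR's adjusted p was 0.994 for a log2 fold change of -0.01 (SE 0.11). SDHA counts are uncertain because the table also lists 4 pseudogenes of it. Over the 6 libraries SDHAP2, SDHAP4, SDHAP1 and SDHAP3 held 1749, 1273, 847 and 278 counts, beside 3124 for SDHA. SDHB, the iron-sulphur subunit, had 41.5, 37.0 and 42.3 CPM in miR-125a-5p libraries and 48.2, 37.5 and 41.1 CPM in control libraries, which overlapped (log2 fold change -0.07, SE 0.13, and 0.03 without control library 1).

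SDHC and SDHD anchor the enzyme in the membrane and form its ubiquinone site. SDHC shares 774 exon bases with CFAP126 on the opposite strand, so its counts may hold reads of both. SDHC had 40.3, 47.5 and 41.5 CPM in miR-125a-5p libraries and 65.5, 31.4 and 38.6 CPM in control libraries. The control values lay on both sides of the miR-125a-5p values, so the direction rested on which control library was read: the log2 fold change was -0.07 (SE 0.18, edgeR adjusted p = 0.975) over all libraries and 0.30 (SE 0.14, adjusted p = 0.765) without control library 1. SDHD had 55.2, 50.8 and 55.8 CPM in miR-125a-5p libraries and 61.9, 49.9 and 44.4 CPM in control libraries, again with overlap, and a log2 fold change of 0.05 (SE 0.13), or 0.19 without control library 1.

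Complex III had 6 of 9 members positive, 0 called, and a median log2 fold change of 0.03. UQCRFS1, the Rieske iron-sulphur protein that takes electrons from ubiquinol, separated the groups: it had 64.1, 59.4 and 61.7 CPM in miR-125a-5p libraries and 53.4, 53.8 and 54.8 CPM in control libraries. Every miR-125a-5p library was above every control library, a pattern that 5.31% of all tested genes shared in this direction, but the log2 fold change of 0.19 (SE 0.11) had an edgeR adjusted p of 0.873. Its control libraries had an SD of log2 CPM of 0.0194, the smallest of the 36 members, and control library 1 stood at 0.983 times the other controls.

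UQCRQ, a small supernumerary subunit, was on the other side, with 35.8, 32.0 and 36.7 CPM in miR-125a-5p libraries and 43.8, 35.3 and 38.3 CPM in control libraries. The groups overlapped, and the log2 fold change was -0.17 (SE 0.13, edgeR adjusted p = 0.914), or -0.08 without control library 1. UQCRB, a subunit that binds near the ubiquinone site, had 54.5, 70.6 and 55.1 CPM in miR-125a-5p libraries and 63.0, 46.3 and 51.3 CPM in control libraries. Its highest value was that of miR-125a-5p library 2, the groups overlapped, and the log2 fold change was 0.17 (SE 0.13, edgeR adjusted p = 0.918). That of UQCRB was 0.03 without miR-125a-5p library 2, 0.07 without control library 2 and 0.30 without control library 1, so its size rested on single libraries.

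UQCRH, the hinge protein that helps cytochrome c dock, had 229, 246 and 236 CPM in miR-125a-5p libraries and 251, 206 and 225 CPM in control libraries. These overlapped, with a log2 fold change of 0.06 (SE 0.09, edgeR adjusted p = 0.962), or 0.13 without control library 1. The near copy UQCRHL held 310 counts over the 6 libraries beside 12540 for UQCRH, and how reads were shared between them is not given in the sources used here. CYC1, the cytochrome c1 haem protein, had a log2 fold change of -0.10 (SE 0.13) and the core proteins UQCRC1 and UQCRC2 had 0.13 and 0.03. The small subunits UQCR10 and UQCR11 had -0.05 and 0.02, and these were -0.0060 and 0.23 without control library 1.

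Complex IV also had no called member, with 6 of 10 positive and a median log2 fold change of 0.01. COX5A, a matrix-side subunit, separated the groups, with 132, 128 and 132 CPM in miR-125a-5p libraries and 126, 114 and 112 CPM in control libraries. Its log2 fold change was 0.16 (SE 0.10, edgeR adjusted p = 0.884). COX4I1, the most highly counted member of the complex and a site of regulation by adenine nucleotides, had 166, 195 and 179 CPM in miR-125a-5p libraries and 159, 170 and 184 CPM in control libraries. Those ranges overlapped, with a log2 fold change of 0.08 (SE 0.10). For COX4I1 this was 0.02 without control library 1, 0.01 without miR-125a-5p library 2, 0.13 without miR-125a-5p library 1 and 0.13 without control library 3.

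COX7B, another small transmembrane subunit, had 46.9, 57.2 and 45.1 CPM in miR-125a-5p libraries and 53.0, 39.6 and 43.9 CPM in control libraries, with overlap (log2 fold change 0.13, SE 0.13, edgeR adjusted p = 0.940). COX7B also rested on single libraries, with a log2 fold change of 0.01 without miR-125a-5p library 2, 0.04 without control library 2 and 0.25 without control library 1. COX8A, also spanning the membrane, had 38.5, 45.4 and 51.2 CPM in miR-125a-5p libraries and 61.4, 44.2 and 40.7 CPM in control libraries, and its log2 fold change of -0.12 (SE 0.15) was 0.08 without control library 1. The other members of complex IV, COX5B, COX6A1, COX6B1, COX6C, COX7A2 and COX7C, had log2 fold changes between -0.05 and 0.05 with overlapping groups. COX7A2 shows what 1 library did here: it had 155, 156 and 146 CPM in miR-125a-5p libraries and 194, 128 and 133 CPM in control libraries, for a log2 fold change of 0.0033, or 0.22 (adjusted p = 0.734) without control library 1.

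Counting the 36 members alone, ATP synthase was the complex with the most positive members, 10 of 13, and also the largest set. The share was 76.9%, against 66.7% for complex III, 60% for complex IV and 25% for complex II. The TCA cycle enzymes described below also had 10 of 13 positive, with a median log2 fold change of 0.16. For the 13 ATP synthase members the median log2 fold change was 0.11, though none passed. The subunits ATP5ME, ATP5MF, ATP5MK and ATP5MJ, which are outside the 36, had -0.09, -0.09, 0.08 and 0.21. Without control library 1 these were -0.02, 0.15, 0.19 and 0.31. The 13 members summed to 1862, 1865 and 1852 CPM in miR-125a-5p libraries 1, 2 and 3 and to 1757, 1607 and 1650 CPM in control libraries 1, 2 and 3. The miR-125a-5p libraries lay close together and above all 3 controls, at 1860 ± 7.03 against 1671 ± 77.1 CPM (SD, n = 3 each). ATP5F1B alone held 700.2 and 606.5 CPM of these means, so the sum leans heavily on that gene. The summed levels of the other complexes overlapped between groups. On the mean of log2 deviations, which weights each member equally, ATP synthase stood at 0.046, 0.055 and 0.060 in miR-125a-5p libraries and 0.065, -0.10 and -0.12 in control libraries, so on that measure control library 1 was the highest of all. No test was made of either score, and the difference between complexes was not tested.

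**Figure D4:**
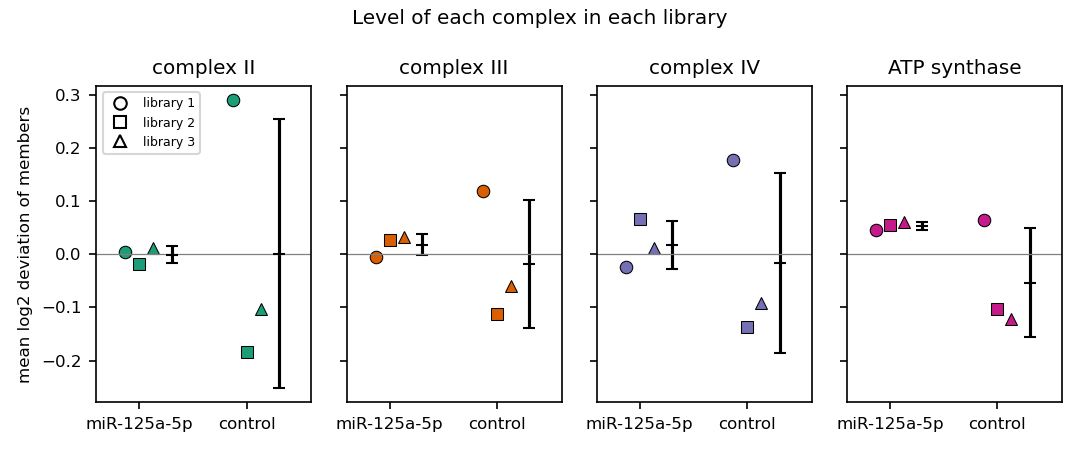
Mean over the members of each complex of log2 CPM minus the gene's mean over 6 libraries (y axis), in miR-125a-5p (left) and control (right) libraries. Symbols are single libraries, and bars are the mean ± SD of 3. The miR-125a-5p libraries lie between -0.02 and 0.07 in each complex, and control library 1 lies above control libraries 2 and 3 in each.

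ATP5F1B, the catalytic beta subunit, had the smallest p of the members: 707, 705 and 688 CPM in miR-125a-5p libraries and 637, 580 and 603 CPM in control libraries. The groups did not overlap, the level was 15.4% higher, and the log2 fold change of 0.21 (SE 0.08, 95% confidence interval 0.04 to 0.38) had an unadjusted p of 0.0201 and an edgeR adjusted p of 0.739. With each library left out in turn it stayed between 0.17 and 0.24. ATP5F1B carried 0 seed matches in its untranslated region.

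Its partner ATP5F1A, the alpha subunit, had 230, 260 and 241 CPM in miR-125a-5p libraries and 196, 235 and 248 CPM in control libraries. These overlapped, for a log2 fold change of 0.11 (SE 0.10), or 0.01 without control library 1, which had the lowest value. For ATP5F1A it was 0.06 without miR-125a-5p library 2 and 0.18 without control library 3. ATP5F1C, the gamma subunit of the central shaft, had 94.0, 81.5 and 79.5 CPM in miR-125a-5p libraries and 70.9, 68.4 and 80.1 CPM in control libraries, with 1 miR-125a-5p library just below 1 control (log2 fold change 0.22, SE 0.11, edgeR adjusted p = 0.846, and 0.14 without miR-125a-5p library 1). ATP5F1D, the delta subunit of the shaft, had a log2 fold change of 0.12 (SE 0.16), or 0.07 without control library 1 and 0.19 without control library 2. ATP5F1E, which shares 1188 exon bases with TUBB1 on the opposite strand, had 31.2, 30.8 and 30.01 CPM in miR-125a-5p libraries and 43.9, 26.2 and 24.9 CPM in control libraries, with a log2 fold change of -0.05 (SE 0.17) and 0.26 without control library 1.

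Subunit c forms the proton-driven ring of ATP synthase and is known to be made from 3 genes, ATP5MC1, ATP5MC2 and ATP5MC3, that differ in their import sequences and yield the same mature protein. ATP5MC3 had 222, 190 and 221 CPM in miR-125a-5p libraries and 202, 159 and 172 CPM in control libraries. Control library 1 exceeded the lowest miR-125a-5p library, and the log2 fold change of 0.25 (SE 0.10) had an unadjusted p of 0.0242 and an edgeR adjusted p of 0.773. ATP5MC1 had 26.1, 30.9 and 26.1 CPM in miR-125a-5p libraries and 26.2, 23.1 and 21.3 CPM in control libraries, which overlapped at control library 1 (log2 fold change 0.24, SE 0.15, edgeR adjusted p = 0.884, and 0.15 without miR-125a-5p library 2).

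ATP5MC2, which carries the 7mer-m8 match printed above, had 26.6, 24.7 and 33.2 CPM in miR-125a-5p libraries and 34.6, 33.1 and 29.9 CPM in control libraries. Only miR-125a-5p library 3 reached the control range, and the log2 fold change of -0.21 (SE 0.15, edgeR adjusted p = 0.898) was the lowest of the 36. It was -0.34 without miR-125a-5p library 3 and -0.12 without miR-125a-5p library 2, and between these with each other library left out. ATP5MC2 made up 10.5% ± 1.14 of the summed subunit c CPM in miR-125a-5p libraries and 14.0% ± 1.22 in control libraries (SD, n = 3 each). Its share did not overlap between groups (9.70% to 11.8% against 13.2% to 15.4%). The ATP5MC3 share lay the other way and did not overlap either (77.3% to 80.8% against 73.9% to 77.1%). That of ATP5MC1 overlapped (9.29% to 12.6% against 9.52% to 10.7%). The shares are parts of the same sum, so a change in 1 moves the others. The summed subunit c level was 267 ± 18.9 CPM in miR-125a-5p libraries and 234 ± 25.3 CPM in control libraries (SD, n = 3 each), with overlapping ranges. ATP5MC2 was singled out here among the 3 genes after its values were seen, and no test was made of the shares.

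**Figure D5:**
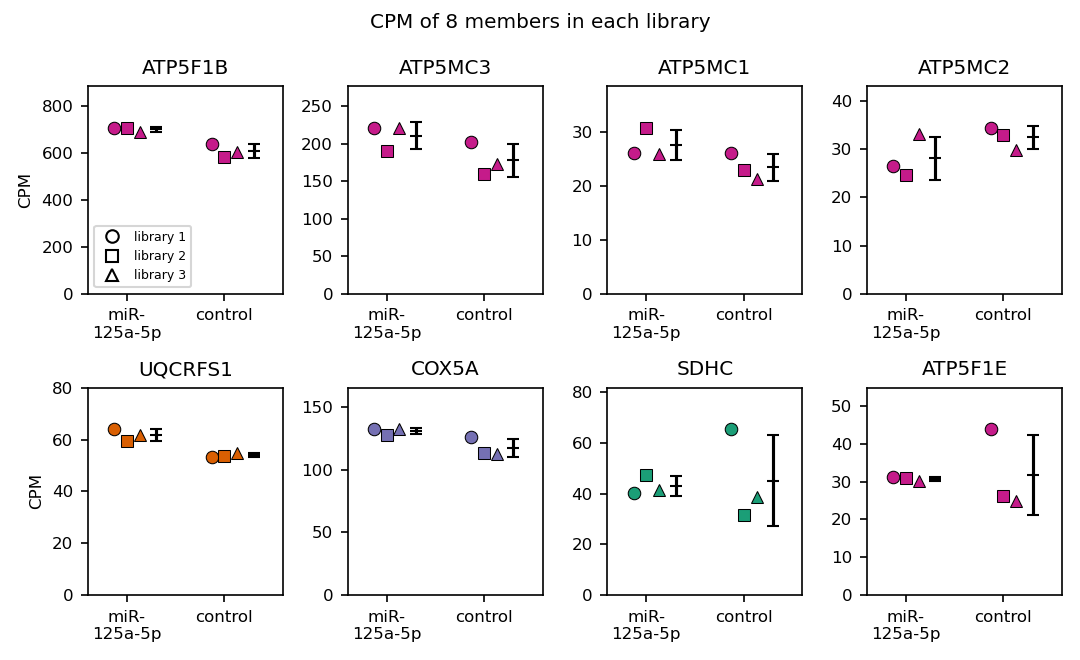
CPM of 8 members (y axis from 0) in miR-125a-5p (left) and control (right) libraries. Symbols are single libraries, and bars are the mean ± SD of 3. ATP5F1B, UQCRFS1 and COX5A do not overlap between groups, and SDHC and ATP5F1E show control library 1 above all other libraries.

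The peripheral stalk, which holds the head still against the rotor, had no called member. ATP5PB, its membrane-anchored subunit b, averaged 208 ± 7.32 CPM in miR-125a-5p libraries and 194 ± 6.03 CPM in control libraries (SD, n = 3 each), with a log2 fold change of 0.09 (SE 0.09). ATP5PO, the oligomycin sensitivity protein at the top of the stalk, had 0.11 (SE 0.10), and the stalk subunits ATP5PF and ATP5PD had 0.03 (SE 0.13) and -0.01 (SE 0.12). ATP5PF was 0.23 without control library 1, and ATP5PO 0.05 without miR-125a-5p library 2 and 0.07 without control library 3. ATP5MG, subunit g of the membrane part, had 72.0, 62.3 and 72.7 CPM in miR-125a-5p libraries and 75.7, 55.0 and 50.1 CPM in control libraries. Control library 1 was the highest of all 6, and the log2 fold change was 0.19 (SE 0.13, edgeR adjusted p = 0.898) with it and 0.39 (SE 0.12, adjusted p = 0.464) without it. For ATP5MG it was 0.13 without control library 2 and 0.07 without control library 3.

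In all, 3 of 36 members were higher in every miR-125a-5p library than in every control library, and 0 were lower in every one, against 5.31% and 5.9% of all tested genes. The 3 were UQCRFS1, COX5A and ATP5F1B, from 3 different complexes. The sign of the fold change was positive for 15 members and negative for 3 (UQCRQ, UQCR10 and ATP5MC2) in the fit to all 6 libraries, in 11 alternatives and with each library left out. These fits reuse the same 6 libraries and are not independent. The matching share of all tested genes is not given here. For UQCR10 the log2 fold change without control library 1 was only -0.0060.

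Genes around the complexes gave no call either by edgeR, with at most 1 gene higher and 1 lower at an unadjusted p under 0.05 in each of the lists that follow. Of 15 other subunits and isoforms, 9 had enough counts, 0 passed, and NDUFA4 (listed under its current name COXFA4), a subunit of complex IV, averaged 108 ± 10.9 CPM in miR-125a-5p and 91.0 ± 5.96 CPM in control libraries (SD, n = 3 each, log2 fold change 0.25, edgeR adjusted p = 0.787). UQCRHL had the smallest edgeR adjusted p of that list, 0.739, with 4.19 ± 1.42 CPM in miR-125a-5p and 7.11 ± 1.62 CPM in control libraries (SD, n = 3 each, log2 fold change -0.76). Without control library 1 the log2 fold change was -0.57 for UQCRHL and 0.26 for NDUFA4. Of the 9, 3 were higher in every miR-125a-5p library than in every control library (COX7A2L, NDUFA4 and ATP5MJ) and 1 was lower in every one (UQCRHL), against 5.31% and 5.9% of all tested genes.

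Assembly factors, which insert cofactors and join subunits, passed in 0 of 4 for complex II, 0 of 9 for complex III, 0 of 25 for complex IV and 0 of 5 for ATP synthase. Their median log2 fold changes were -0.08, -0.0066, 0.06 and 0.14. SDHAF2, which helps attach the flavin of SDHA, had -0.24, or -0.11 without control library 1. SDHAF4 had -0.39, or -0.25 without that library, at 1.59 ± 0.754 CPM in miR-125a-5p and 2.08 ± 0.400 CPM in control libraries (SD, n = 3 each). TTC19 and BCS1L, which inserts the Rieske protein, had -0.28 and -0.30, with edgeR adjusted p of 0.855 and 0.885, and BCS1L had -0.15 without control library 1. Of the 9 factors of complex III, 3 were lower in every miR-125a-5p library than in every control library (TTC19, BCS1L and UQCC5) and 1 was higher in every one (LYRM7, log2 fold change 0.14), against 5.9% and 5.31% of all tested genes. Of the 25 factors of complex IV, 2 were lower in every one (PET100 and TACO1) and 1 was higher (CMC1). For complex II and ATP synthase 0 were lower and 0 higher in every one. SCO2, a copper chaperone of complex IV, had -0.36 and CMC2 0.37 (edgeR adjusted p = 0.741 and 0.833). ATPAF1 and TMEM70 of ATP synthase had 0.14 and 0.25.

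Of 13 TCA cycle enzymes 10 were positive and 0 passed. In every miR-125a-5p library 2 of the 13 (DLD and FH) were higher than in every control library and 0 were lower, against 5.31% and 5.9% of all tested genes. DLD, the dihydrolipoamide dehydrogenase, averaged 107 ± 4.13 CPM in miR-125a-5p and 83.9 ± 12.3 CPM in control libraries (SD, n = 3 each, log2 fold change 0.35, edgeR adjusted p = 0.541), and CS, citrate synthase, had a log2 fold change of 0.17. Without control library 1 these were 0.25 for DLD and 0.22 for CS. The median of the 13 enzymes was 0.16 with all libraries and 0.06 without control library 1. Cytochrome c (CYCS), the carrier between complexes III and IV, had 0.19 (edgeR adjusted p = 0.882), and 0.33 without control library 1. Of 12 regulators 0 passed. In every miR-125a-5p library 2 of them (GABPA and TFAM) were higher than in every control library and 2 (SP1 and PPARGC1A) were lower. Over all tested genes these patterns were seen in 5.31% and 5.9%. GABPA shares 413 exon bases with the member ATP5PF on the opposite strand, so its counts may hold reads of both. PPARGC1A had few counts, 10, 17 and 15 in miR-125a-5p libraries and 23, 31 and 26 in control libraries. PPARGC1A, a coactivator of mitochondrial genes, stood at 1.603 ± 0.374 CPM in miR-125a-5p and 2.93 ± 0.707 CPM in control libraries (SD, n = 3 each, log2 fold change -0.85, edgeR adjusted p = 0.855), and TFB2M, a mitochondrial transcription factor, had 0.24.

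Complex I, which feeds electrons to ubiquinone from NADH, gave a like picture, with 23 of 37 subunits positive, a median of 0.04 and 0 called. NDUFS1 and NDUFS8, iron-sulphur subunits, had log2 fold changes of 0.22 and 0.30, each with an edgeR adjusted p of 0.864, and NDUFS1 had 0.33 without control library 1. Without control library 1, 29 of the 37 were positive, with a median of 0.10. In every miR-125a-5p library 1 of the 37 (NDUFAB1) was higher than in every control library and 2 (NDUFA2 and NDUFC2) were lower, against 5.31% and 5.9% of all tested genes.

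Promoters were read because respiratory genes are known targets of NRF1 and of the ETS factor GABPA. RefSeq promoter windows (GRCh38.p14, 250 bases before to 50 bases after the start) matched 29 of 36 members. The NRF1 motif, GCGCA and GCGC separated by 1 base, on either strand, was in 8 of 29 windows (27.6%), against 6.28% of all 27305 windows and 11.3% of the 11451 windows of tested genes. The ETS motif CCGGAAG, on either strand, was in 13 of 29 (44.8%), against 10.7% of all windows and 18.6% of those of tested genes. The motif letters do not overlap in sequence. At least 1 of the motifs was in 19 of 29 windows (65.5%), and both were in SDHD and UQCR11. A match is a description of letters and shows no binding.

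Windows around single matches are shown for members from each complex, as the gene's own strand with the motif, or its reverse complement, in capitals.
SDHA NRF1: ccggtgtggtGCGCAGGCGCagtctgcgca
SDHD NRF1: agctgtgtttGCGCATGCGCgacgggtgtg
UQCRFS1 NRF1: gcgcctcctcGCGCCTGCGCcgtggttgga
ATP5F1C NRF1: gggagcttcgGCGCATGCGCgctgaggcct
SDHD ETS: ccgcctctcgaCTTCCGGttcacccagca
COX5B ETS: gaagcccgcccCCGGAAGtccctcctgtc
ATP5MG ETS: tgcagcgggtcCTTCCGGcgggtgacatt

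The SDHA window lies on chromosome 5, 218291 to 218320, plus strand. The NRF1 and ETS windows of SDHD lie on chromosome 11, 112086753 to 112086782 and 112086785 to 112086813, plus strand. The UQCRFS1 window lies on chromosome 19, 29213163 to 29213192, minus strand, and that of ATP5F1C on chromosome 10, 7788145 to 7788174, plus strand. The COX5B window lies on chromosome 2, 97646014 to 97646042, plus strand, and that of ATP5MG on chromosome 11, 118401596 to 118401624, plus strand. SDHA held 4 copies of the NRF1 motif in its window, beginning 166, 117, 68 and 19 bases before the start. The members' fold changes did not divide by motif: the median log2 fold change was 0.08 for the 8 members with the NRF1 motif (-0.05 to 0.22), 0.015 for the 13 with the ETS motif (-0.17 to 0.19) and 0.06 for the 10 with neither (-0.21 to 0.24).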

How the data were processed

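For 6 libraries of THP-1 RNA, the authors deposited raw read counts per gene in 1 table, as whole numbers without normalization. The submitters' processing notes name bcl2fastq, TopHat, edgeR and the build hg19, with no versions. The sources used here give no counter, annotation, strand setting or rule for reads that match several genes. Overlapping genes may therefore share reads: 19 of 36 members share exon bases with another gene in GENCODE 29, 14 of them on the opposite strand. A RefSeq table named 26204 gene IDs (99.5%). Columns that belong to no sample numbered 0.

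The count test was that of edgeR 4.0.16 (R 4.3.3), with filterByExpr, TMM factors, glmQLFit, glmQLFTest, no covariate and Benjamini-Hochberg adjustment over 14731 genes at a threshold of 0.05. The SE is the log2 fold change divided by the square root of F, and the 95% interval uses the degrees of freedom of the test. No pair of libraries agreed within sampling noise. Depth was 8256149 to 10257791 counts per library, and the common coefficient of biological variation was 12.5%. Alternatives were DESeq2 1.42.0, limma 3.58.1, other scalings and filters, removal of a length or GC trend (loess, span 0.5), a replicate block, and each library left out. Principal components and deviations used log2 CPM with a prior count of 2.

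The members and lists were chosen with earlier results of these data known. All members are accounted for. Those given in detail are the 3 with the smallest p and the most highly counted one of each complex, the subunit c genes, and the 2 with the smallest p of each other list. ATP5MG, COX7A2, ATP5F1A, ATP5F1E and ATP5PB were added after their values were seen.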

Additional observations from a re-analysis of the deposited data

How the results depend on the processing

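Under 11 alternatives that kept all libraries, 388 member fold changes kept their sign and 8 turned it, all of them close to 0. With the GC trend removed the log2 fold change was 0.013 for SDHA, 0.011 for COX6B1 and -0.0036 for COX7A2. With the length trend removed it was 0.031 for COX7C and 0.0079 for ATP5F1E. COX7C had 0.0060 with upper-quartile factors, 0.0030 with limma voom and 0.0053 with the replicate block. The cause was not tested. No member passed in any fit, and the smallest adjusted p was 0.391 (edgeR, without control library 1). With no adjustment of p, 2 members were called higher and 0 lower, against 397 higher and 475 lower genes overall. Over all genes 0 were higher and 4 lower, and these counts were 11 and 41 with no count filter, 1 and 8 with DESeq2, and 4 and 17 with the likelihood ratio test. With the replicate block 0 genes were higher and 9 lower. The deviations of same-numbered libraries had correlations of 0.0558, 0.0138 and -0.0156. With 3 libraries a group these values cannot show whether same-numbered libraries were prepared together. The labels give them a shared number and state no pairing.

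With 1 library left out, 0 to 2 genes were higher and 3 to 14 lower, with 14 called in all without control library 3, and 0 members were called. The median log2 fold change of all members ranged from 0.0048 to 0.14, that of complex II from -0.10 to 0.11, of complex III from -0.0075 to 0.13, of complex IV from -0.06 to 0.14 and of ATP synthase from 0.078 to 0.19. The fold change of 18 members turned its sign, 9 of them without control library 1. Over the 6 such fits SDHA ranged from -0.047 to 0.034, SDHB from -0.15 to 0.031, SDHC from -0.28 to 0.30, SDHD from -0.054 to 0.19, UQCRC2 from -0.028 to 0.096, UQCRH from -0.0075 to 0.13, UQCR11 from -0.085 to 0.23 and CYC1 from -0.18 to 0.018. COX5B ranged from -0.16 to 0.18, COX6A1 from -0.068 to 0.19, COX6B1 from -0.085 to 0.039, COX6C from -0.074 to 0.094, COX7A2 from -0.10 to 0.22, COX7C from -0.070 to 0.11 and COX8A from -0.23 to 0.081. ATP5F1E ranged from -0.20 to 0.26, ATP5PF from -0.072 to 0.23 and ATP5PD from -0.044 to 0.027. Depth was 180 to 6501 counts per member and library, with 3 libraries a group.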
